A study of Mus musculus with 8 samples.

Results

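The genes described here are those whose symbol begins as a collagen chain (Col, a number, a, a number) or as a laminin chain (Lama, Lamb or Lamc and a number). In the single-nucleus gene expression tables of the mouse hippocampus, 56 of 32285 genes fit that rule: 44 collagen chains, 11 laminin chains and Col4a3bp, which shares the form of the symbol but encodes a ceramide transfer protein and no collagen. The nuclei came from wild-type C57BL/6J pups on postnatal day 21. Their dams, 8 weeks old at the start, ate a diet with folic acid at 2 mg/kg (MF) or at a high level of 20 mg/kg (HF). The study names the MF diet its control and its level conventional. The diets were given before mating and through pregnancy and lactation, so both groups received folic acid and neither stands for a diet without it. Each diet has 2 libraries, called MF1, MF2, HF1 and HF2, and each was read both for RNA, as unique molecular identifiers (UMIs, counts of captured transcripts), and for open chromatin by ATAC. The sources do not say how many pups went into a library, so the p-values below measure the spread between libraries, which may in part be technical.

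Collagens are proteins of 3 chains wound into a triple helix. Fibrillar types build the cables of connective tissue, type IV collagen forms the sheet of the basement membrane, and transmembrane types sit in the cell surface. Laminins are cross-shaped trimers of an alpha, a beta and a gamma chain, and they form the other network of the basement membrane. In the brain this sheet surrounds every blood vessel and lies under the pia, the innermost of the meninges, where fibroblasts, vessel cells and the endfeet of astrocytes meet it. Neurons make a few collagens of their own, among them type XIX, which is known from hippocampal interneurons.

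After filters on genes, mitochondrial UMIs and ATAC counts, 2249 to 3473 nuclei per library were left of 2965 to 4241, with 20151562 to 29243072 UMIs per library and a median of 6117 to 7053 UMIs per nucleus. Libraries shared 13 to 27 cell barcodes in pairs. Nuclei were clustered without the collagen and laminin genes, and clusters were named from fixed markers. A name therefore means "like" that cell type by its markers, and clusters with too few markers keep a number. The vessel and meningeal nuclei were few: 22 were endothelial (4, 9, 5 and 4 in MF1, MF2, HF1 and HF2), 26 mural, that is pericytes and smooth muscle (9, 2, 8 and 7), and 102 leptomeningeal, that is fibroblasts of the pia and arachnoid (6, 31, 46 and 19). The leptomeningeal class joins a subcluster of 89 nuclei (6, 27, 40 and 16) and one of 13 (0, 4, 6 and 3). Lama1 and Col3a1 are among the 10 leading genes of the larger one only, and Slc47a1 leads the smaller one. MF1 thus holds none of the smaller subcluster, and the part of this mix in the levels was not tested. The endothelial nuclei held UMIs of all 20 endothelial markers and of 0 of 14 mural markers, the mural nuclei of 13 of 14 mural markers with Acta2 at 0, and the leptomeningeal nuclei of all 24 leptomeningeal markers. The same markers named the clusters, so finding them there does not test the names. Levels below are UMIs per 1000000 UMIs of the class (CPM), summed over the 4 libraries unless a library is named. They compare 1 gene between classes and never genes with each other, because long genes may give more nuclear UMIs.

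Some of these nuclei carried RNA of other cell types, among them of each other. Leptomeningeal nuclei had UMIs of 10 of the 20 endothelial markers, at 304 to 690 CPM per library with Flt1 and Cldn5 at 0, and of 9 of the 14 mural markers, at 890 to 3140 CPM. Mural nuclei had UMIs of 10 of the 24 leptomeningeal markers, at 1820 to 3910 CPM with Dcn and Lum at 0, and of 5 endothelial markers, at 364 to 1290 CPM. In HF1 the leptomeningeal nuclei had 13300 CPM of the 11 choroid plexus markers, against 86.8 to 170 CPM in the other libraries, and 3 of its nuclei had more choroid plexus markers than leptomeningeal ones. In HF1 the mural nuclei had 6730 CPM of the 14 microglial markers, which had no UMI in mural nuclei of the other libraries. In all, 10 of the 150 vessel and meningeal nuclei had more markers of another cell type. The 14 astrocyte markers summed to 4780 to 7210 CPM per library in leptomeningeal nuclei and to 3830 to 5000 CPM in mural nuclei, with 14 and 6 of them detected, against a mean of 381 CPM in endothelial nuclei. Their part in the levels below was not tested. The mural nuclei had a median Scrublet doublet score of 0.0535, over the limit of 0.05, and stayed in because their UMIs were low (median 1409). Where nuclei were instead called 1 by 1 from 3 or more markers, these levels were lower. Mural nuclei then held 270 CPM of Col4a1, 169 of Col4a2, 311 of Lamc1 and 257 of Lama2, and endothelial nuclei 118 of Col4a1 and 141 of Col4a2. Leptomeningeal nuclei held 496 CPM of Lama1, 739 of Lama2, 560 of Col1a2, 292 of Col3a1, 313 of Col4a5 and 345 of Col4a6.

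The 55 chains gave 74719 UMIs, 0.0737% of all. Their summed levels were highest in leptomeningeal and mural nuclei. The 44 collagens summed to 5770 CPM in leptomeningeal nuclei (7630, 7030, 5090 and 4990 CPM in MF1, MF2, HF1 and HF2), to 2460 CPM in mural nuclei and to 1480 CPM in inhibitory neurons. Every leptomeningeal library lay above every library of the other classes. In inhibitory neurons most of the sum came from Col25a1 (701, 703, 875 and 683 CPM) and Col19a1 (494, 567, 479 and 457 CPM). Endothelial nuclei held 722 CPM, below inhibitory neurons, and all other classes between 180 CPM, in oligodendrocytes, and 550 CPM, in the excitatory clusters without a subtype.

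The 11 laminin chains were shared out differently. They summed to 3220 CPM in leptomeningeal, 2850 CPM in mural and 1070 CPM in endothelial nuclei, but also to 1300 CPM in astrocytes (1100, 1410, 1140 and 1570 CPM) and 1560 CPM in the unnamed cluster 11 (1360, 1600, 1380 and 1990 CPM). Microglia held 43.1 CPM, the lowest of any class. In astrocytes the sum was mostly 1 gene. Lama2 gave 573, 1020, 1482 and 1341 of their 611, 1075, 1602 and 1411 laminin UMIs in MF1, MF2, HF1 and HF2. Of the 45 chains with at least 100 UMIs over all nuclei, 30 (66.7%) had their highest mean level in the combined class of vessel and meningeal nuclei, while 2728 of 15990 genes with as many UMIs (17.1%) did. Not all of these leads were clear. Col5a3 held a mean of 19.0 CPM there against 16.2 in oligodendrocyte precursors, and the libraries overlapped. Col4a4 held 15.7 CPM, from 6 UMIs, against 10.1 in dividing nuclei, also with overlap. Some chains reached 100 UMIs only with those of these nuclei. Col3a1 had 120 of its 198 UMIs, and Col4a6 156 of its 243, in leptomeningeal nuclei. The map of levels by class shows the chains high in vessel and meningeal nuclei beside the smaller sets in neurons, glial precursors and microglia.

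**Figure D1:**
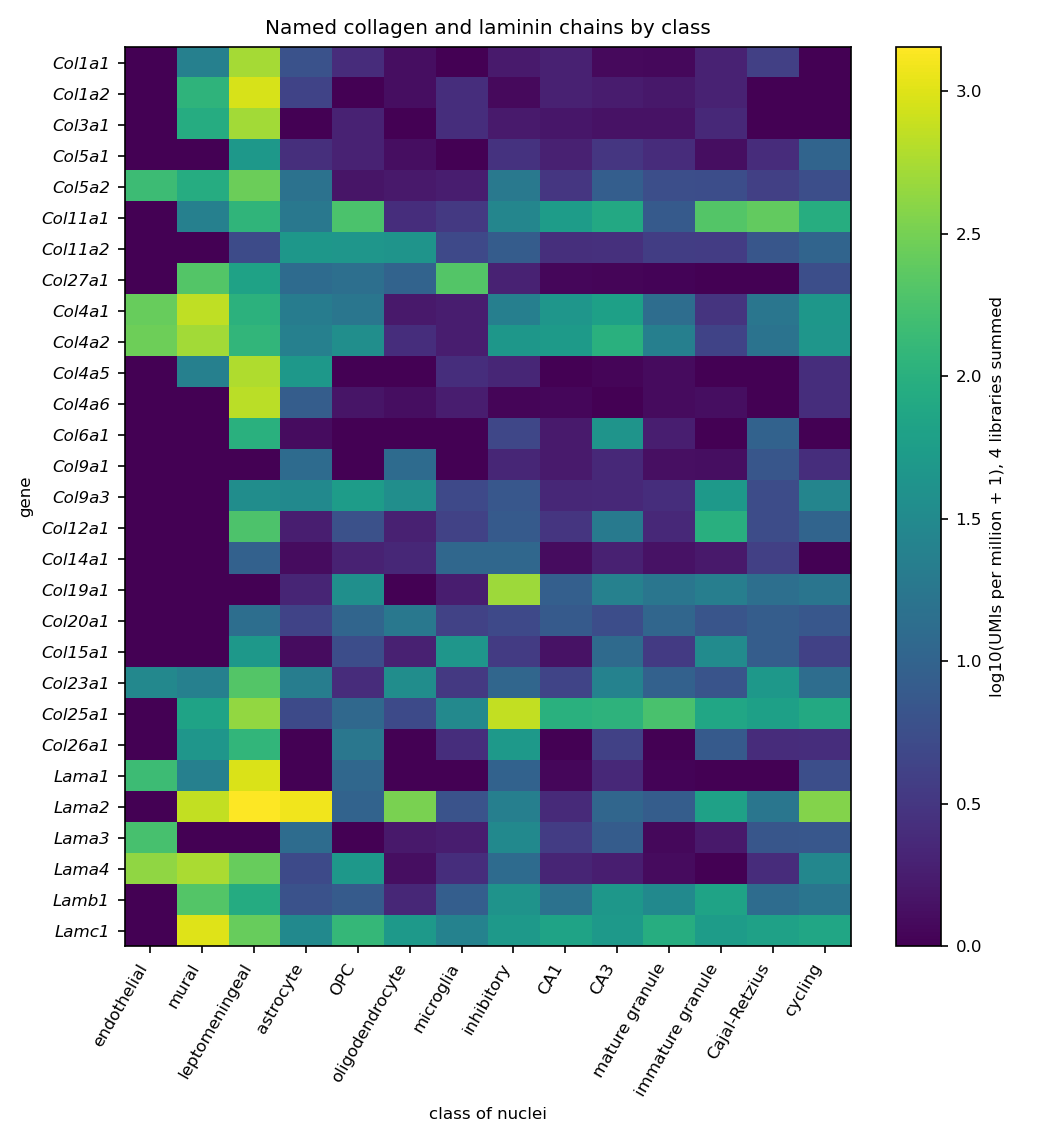
Level of collagen and laminin chains with at least 100 UMIs in a class (rows) in 14 classes of nuclei (columns), as log10 of CPM plus 1, with the 4 libraries summed. Darker and lighter cells mark levels on the scale at the side; Col1a1, Col1a2, Col3a1, Col4a5, Col4a6 and Lama1 stand out in the leptomeningeal column, Col19a1 and Col25a1 in inhibitory neurons.

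The fibrillar collagens of connective tissue marked the leptomeningeal nuclei. Col1a2, a chain of type I collagen, reached 1530, 826, 979 and 781 CPM there in MF1, MF2, HF1 and HF2. Its partner chain Col1a1 reached 593, 487, 559 and 521 CPM, and Col3a1, the single chain of type III collagen that mixes with type I in elastic tissues, 424, 442, 559 and 543 CPM. The libraries of both diets lay close together in all 3 genes, apart from the high Col1a2 value of MF1, which rests on 18 UMIs in 6 nuclei. For Col3a1 both HF values lay above both MF values, as they did for 13.2% of the 1903 genes tested in vessel and meningeal nuclei. In every glial and neuronal class the 3 genes stayed at or below 5.25 CPM, the level of Col1a1 in astrocytes. Endothelial nuclei held no UMI of any of them, which allows up to 86.6 CPM (3 counts), so that a low level there was not detectable at this depth. Type V collagen starts the fibrils of type I, and its chain Col5a2 held 279 CPM in leptomeningeal nuclei (254, 236, 270 and 369 CPM) against 17.8 CPM in inhibitory neurons. Col5a1, the other main chain of that type, stood at 47.2 CPM in leptomeningeal nuclei and at 41.3 CPM in the unnamed cluster 6, a level in 389 nuclei that came from all libraries (45.1, 46.5, 45.9 and 33.2 CPM).

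A stretch at the start of Col3a1 and Col1a2 is shown because, among all 56 genes, these had the highest ratios of the mean level in vessel and meningeal nuclei to that in the next named class (166 and 234). Neither had an accessible region shared by all libraries at its start. The sequences are from RefSeq on GRCm38.p6, 5′ to 3′ on the strand of the gene, without annotated exon bases, and lie at chr1:45311288-45311537 for Col3a1 and chr6:4505370-4505492 for Col1a2, both on the plus strand. The Col3a1 stretch ends at the start listed there. The Col1a2 stretch ends 125 bases before the start listed there but lies inside the gene as annotated, which begins at position 4504814. Capitals mark a TATA box (TATAAA) in Col3a1 and a pair of GC boxes (GGGCGG) in Col1a2.
Col3a1: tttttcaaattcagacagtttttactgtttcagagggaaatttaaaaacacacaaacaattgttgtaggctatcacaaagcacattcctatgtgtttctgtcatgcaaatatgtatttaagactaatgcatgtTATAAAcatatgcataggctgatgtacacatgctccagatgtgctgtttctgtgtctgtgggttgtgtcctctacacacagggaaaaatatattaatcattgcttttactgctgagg
Col1a2: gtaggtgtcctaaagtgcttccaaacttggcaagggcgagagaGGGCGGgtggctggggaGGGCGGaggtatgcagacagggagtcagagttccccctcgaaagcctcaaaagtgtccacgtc
Together with these, the CCAAT box was searched on both strands, in the 250 bases before each start. The TATA box occurs in 12.4% of 32851 RefSeq promoters and in 5 of the 44 promoters listed for 40 of the genes described here. The GC box occurs in 32.7% and 24 of 44, and CCAAT in 33.8% and 14 of 44. These counts take the full 250 bases, where Col1a2 also has a CCAAT box that is not within the stretch shown. These matches describe letters and not sites.

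The type IV collagen chains were spread differently over vessels and meninges. Col4a1 and Col4a2, the chains of every basement membrane, had their highest summed level in mural nuclei, at 717 CPM for Col4a1 (1050, 1090, 133 and 923 CPM, 32 UMIs) and 515 CPM for Col4a2 (751, 364, 267 and 646 CPM, 23 UMIs). HF1 was low for Col4a1, where 2 UMIs were found in 8 nuclei. Endothelial nuclei held 260 and 289 CPM of the pair, from 9 and 10 UMIs, and leptomeningeal nuclei 107 and 120 CPM. For Col4a1 the mural libraries overlap those of both other classes (leptomeningeal MF1 held 339 CPM), and for Col4a2 those of endothelial nuclei. The order of the summed levels was the same, mural first and leptomeningeal last, without nuclei over the doublet score and with nuclei called 1 by 1. CA3 neurons held a steady lower level, with Col4a1 at 69.6, 56.1, 56.0 and 63.1 CPM and Col4a2 at 95.6, 109, 99.4 and 91.1 CPM in MF1, MF2, HF1 and HF2. Microglia had 1 UMI of Col4a1.

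Col4a5 and Col4a6, the X-linked chains of the other type IV network, followed the meninges instead. Col4a5 reached 1100, 782, 438 and 586 CPM and Col4a6 1780, 944, 382 and 651 CPM in leptomeningeal nuclei of MF1, MF2, HF1 and HF2. MF1 was highest and HF1 lowest for both, and the MF1 values rest on 13 and 21 UMIs in 6 nuclei. Mural nuclei held 1 UMI of Col4a5 and none of Col4a6 (up to 67.2 CPM), and endothelial nuclei none of either. Astrocytes had 47.2 CPM of Col4a5 (23.4, 43.2, 53.6 and 55.6 CPM) and 7.46 CPM of Col4a6. The unnamed cluster 11, whose astrocyte markers summed to 13500 CPM, had 78.3 and 24.9 CPM.

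The pair lies head to head on the X chromosome and the stretches before both starts are shown because the genes were high in the same nuclei. Col4a6 runs on the minus strand (chrX:141474096-141474326) and Col4a5 on the plus strand (chrX:141475169-141475369). Capitals mark a CCAAT box in Col4a5, and the Col4a6 stretch holds none of the 3 motifs. The full 250 bases before each start also hold a GC box in both genes, not within the stretches shown.
Col4a6: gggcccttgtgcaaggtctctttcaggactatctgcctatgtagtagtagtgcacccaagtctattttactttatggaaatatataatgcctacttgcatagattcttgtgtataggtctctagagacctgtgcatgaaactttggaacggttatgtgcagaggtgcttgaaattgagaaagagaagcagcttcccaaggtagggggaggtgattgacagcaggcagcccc
Col4a5: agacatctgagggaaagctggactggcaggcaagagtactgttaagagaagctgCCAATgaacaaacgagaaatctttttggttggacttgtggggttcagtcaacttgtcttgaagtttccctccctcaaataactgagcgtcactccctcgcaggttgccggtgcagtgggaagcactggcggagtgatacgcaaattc
The Col4a5 stretch lies inside a region open in all 4 libraries (chrX:141474948-141475861), described with the accessibility below.

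The alpha chain sets what a laminin binds, and the 4 well-detected alpha chains each had their own distribution. Lama2, the alpha chain of muscle and of glial endfeet that is lost in a congenital muscular dystrophy, was spread over meninges, vessels and astrocytes. It reached 1360, 1710, 923 and 2210 CPM in leptomeningeal nuclei and 1030, 1330, 1060 and 1490 CPM in astrocytes of MF1, MF2, HF1 and HF2. These ranges overlap. Mural nuclei held 739 CPM (601, 1640, 466 and 830 CPM, 33 UMIs), and all but the MF2 value lay below every leptomeningeal and astrocyte library. The unnamed cluster 11 stood at 1450 CPM. Dividing nuclei (368 CPM) and oligodendrocytes (331 CPM, 260 to 363 CPM per library) came next, immature granule neurons held 62.9 CPM and microglia 5.49 CPM. The immature class joins subclusters of 823 and 86 nuclei, and Lama2 is among the 10 leading genes of the smaller one only, which Eomes, a gene of neuronal progenitors, leads. Endothelial nuclei had no UMI of Lama2 (up to 86.6 CPM).

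Lama1, the alpha chain of embryonic basement membranes and of the pia, was found in leptomeningeal nuclei at 1190, 1190, 718 and 1090 CPM. Outside the vessels its highest level was 10.2 CPM, in oligodendrocyte precursors, and astrocytes held none of it (up to 0.829 CPM). Lama4, the alpha chain of vessel walls, had the reverse order within this group: 560 CPM in mural nuclei (451, 182, 800 and 554 CPM), 433 CPM in endothelial nuclei (175, 127, 840 and 1020 CPM) and 266 CPM in leptomeningeal nuclei (678, 339, 186 and 239 CPM). Their libraries overlap, so the order of the 3 classes is not set by these data. Precursors held 47.6 CPM of Lama4 and the unnamed cluster 16 held 27.9 CPM. Lama3, the alpha chain of epithelial anchoring laminin, was an inhibitory neuron gene among classes with more than 10 of its UMIs (31.6, 34.0, 32.3 and 24.9 CPM). Endothelial nuclei showed 173 CPM of Lama3, but 5 of those 6 UMIs were from HF1.

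The beta and gamma chains were less restricted. Lamc1, the gamma chain of most laminins, was highest in mural nuclei (1430, 911, 1070 and 461 CPM), where each library lay above every library of every glial or neuronal class. Leptomeningeal nuclei held 266 CPM, with MF1 at 763 CPM, above the mural value of HF2, so the libraries of these classes overlap. Precursors held 126 CPM and mature granule neurons 91.8 CPM (84.4 to 98.3 CPM per library). Endothelial nuclei had none (up to 86.6 CPM). Lamb1, the main beta chain, stood at 202 CPM in mural nuclei from 9 UMIs, at 67.4 CPM in immature granule neurons (61.0 to 70.0 CPM) and at 45.8 CPM in CA3 neurons. The sparse chains Lamb2 and Lamc3, named after their values were seen, had their highest mean level in vessel and meningeal nuclei. Lamb2 held 144 CPM in endothelial, 157 CPM in mural and 73.0 CPM in leptomeningeal nuclei, and Lamc3 157 CPM in mural and 125 CPM in leptomeningeal nuclei, each from 29 UMIs or fewer per class. Astrocytes also held Lamb2, at 16.2, 19.6, 16.4 and 11.1 CPM in MF1, MF2, HF1 and HF2, from 9, 15, 23 and 10 UMIs.

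**Figure D2:**
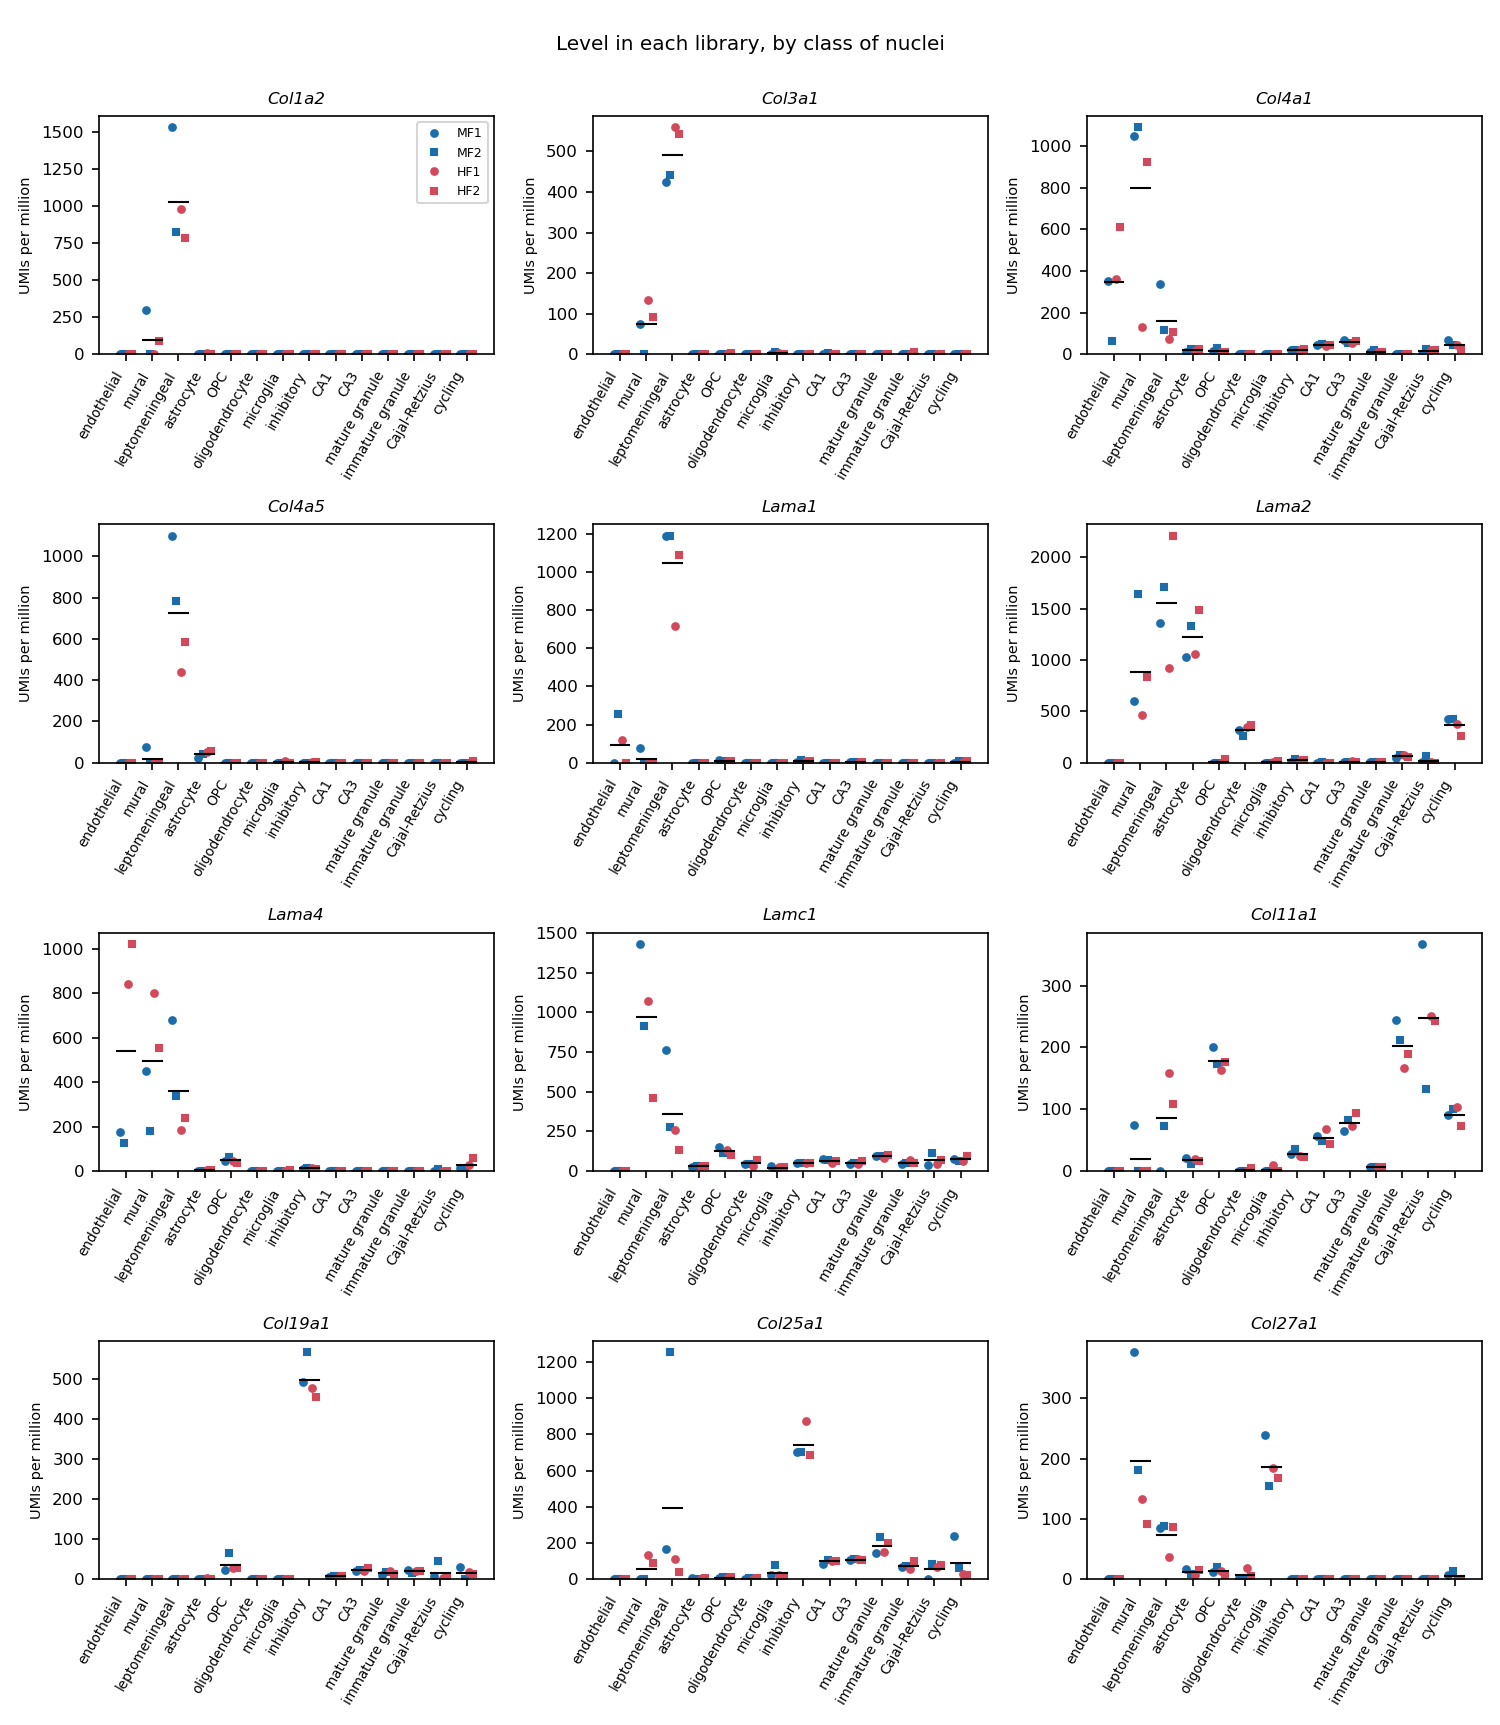
Level in CPM of 12 collagen and laminin genes by class of nuclei, with 1 point per library (MF1, MF2, HF1, HF2) and a bar at the mean of the 4. Lama2 is high in leptomeningeal nuclei and in astrocytes (1030 to 1490 CPM), and Col4a1 and Lamc1 have their highest mean in mural nuclei. In leptomeningeal nuclei Col3a1 is higher in both HF libraries than in both MF libraries, and Col4a1, Col4a5, Lama1, Lama4 and Lamc1 are lower. Of the 1903 genes tested in vessel and meningeal nuclei, 13.2% are higher there without overlap and 17.4% lower. MF1 has 6 leptomeningeal nuclei. Lama1 and Lamc1 overlap between the diets without nuclei that have more markers of another type. No test was run in leptomeningeal nuclei.

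Neurons held a second set of collagens, of which Col26a1, Col6a1 and Col23a1 had a still higher mean in the combined vessel and meningeal nuclei. Col19a1, a fibril-associated collagen that interneurons secrete at their synapses, held 494, 567, 479 and 457 CPM in inhibitory neurons of MF1, MF2, HF1 and HF2. The next named class, oligodendrocyte precursors, held 35.8 CPM, and leptomeningeal nuclei held no UMI (up to 12.9 CPM). Col25a1, a transmembrane collagen of neurons found in amyloid plaques, held 701, 703, 875 and 683 CPM in inhibitory neurons, 297 CPM in the excitatory clusters without a subtype and 177 CPM in mature granule neurons. Its 434 CPM in leptomeningeal nuclei came mostly from a pair of MF2 nuclei with 50 and 26 of the 101 UMIs. Col26a1, a small secreted collagen, was held by inhibitory neurons (43.5 to 58.5 CPM) and leptomeningeal nuclei (120 CPM). Col6a1, a chain of the beaded filaments around cells, separated the pyramidal fields: CA3 neurons held 39.0, 45.5, 37.4 and 48.0 CPM and CA1 neurons 0, 0, 2.32 and 0.551 CPM, with leptomeningeal nuclei at 98.7 CPM. Col23a1, another transmembrane collagen, held 87.0 CPM in the unnamed cluster 16 and 202 CPM in leptomeningeal nuclei.

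Some minor fibrillar and fibril-associated collagens differed between young and mature granule neurons. Col11a1, a chain of the cartilage type XI collagen, held 250 CPM in Cajal-Retzius cells (367, 133, 251 and 242 CPM), 204 CPM in immature granule neurons (244, 212, 166 and 190 CPM) and 180 CPM in oligodendrocyte precursors (201, 173, 164 and 177 CPM). These 3 classes overlap. Mature granule neurons held 6.77 CPM (6.30 to 7.18 CPM), so every library of immature granule neurons lay above every library of mature ones. The gene was not restricted to young cells: CA3 neurons held 64.5 to 94.3 CPM per library, CA1 neurons 43.0 to 67.7 CPM and leptomeningeal nuclei 116 CPM. Col12a1, a fibril-associated collagen of tendon, was highest in leptomeningeal nuclei at 185 CPM. Immature granule neurons held 97.4 CPM of it (82.0 to 117 CPM), mature ones 1.34 CPM and CA3 neurons 18.5 CPM. Col9a3, a chain of cartilage type IX collagen, held 115 CPM in the unnamed cluster 12, 54.2 CPM in precursors (118 CPM at a higher clustering resolution) and 47.9 CPM in immature granule neurons, and its partner Col9a1 held 36.4 CPM in the same cluster.

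Col11a2 was a glial gene, at 46.1 CPM in astrocytes, 45.0 CPM in precursors and 42.3 CPM in oligodendrocytes, 3 values whose libraries overlap. Microglia, which had almost no laminin, held Col27a1, a fibrillar collagen of growing cartilage, at 239, 155, 185 and 168 CPM. They also held Col15a1, a basement membrane collagen whose end is related to endostatin, at 31.0, 37.4, 58.6 and 60.2 CPM, against 32.2 CPM in immature granule neurons and 47.2 CPM in leptomeningeal nuclei. The levels of Col14a1 (10.4 CPM in inhibitory neurons and 10.2 CPM in microglia, which have the higher mean over libraries, 11.4 CPM) and Col20a1 (at most 17.2 CPM, in oligodendrocytes, and 9.21 CPM there at the higher resolution) were low everywhere. Col4a3bp, the gene that is no collagen, was found in every class at 44.8 CPM or more. The other 25 genes had 16 to 230 UMIs each over all nuclei, with a median of 107, and none was without a UMI.

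The start of Col11a1 is shown because the gene was highest in Cajal-Retzius cells, immature granule neurons and precursors and its start lies in a region open in all 4 libraries (chr3:114029974-114030906). The stretch lies within that region, at chr3:114030290-114030478 on the plus strand. Capitals mark a GC box and, on the other strand, a CCAAT box (printed as ATTGG).
Col11a1: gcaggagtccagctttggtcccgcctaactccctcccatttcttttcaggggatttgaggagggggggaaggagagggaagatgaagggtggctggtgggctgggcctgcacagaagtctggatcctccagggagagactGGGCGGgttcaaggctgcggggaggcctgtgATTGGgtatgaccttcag

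Open chromatin gave a second readout of the same nuclei, which did not enter the clustering. The libraries' peaks gave 253748 regions after merging. Every library had a peak in 154785 of these, and 32 of the 56 genes had such a region within 500 bases of an annotated start. Values are ATAC counts per 1000000 counts of the class (ATAC CPM). The region at the Lamc1 start held 136 ATAC CPM in leptomeningeal and 134.5 in mural nuclei against 75.9 in astrocytes and 38.6 in microglia. The single region over the shared start of Col4a1 and Col4a2 (chr8:11312342-11313284) held 48.2 in endothelial, 43.6 in mural and 31.8 in precursor nuclei, and 0.287 in microglia, where Col4a1 RNA was also near 0. With 9 and 12 counts behind them, the vessel values overlap those of the neuronal classes.

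Lama1 had 44.7, 58.1, 9.69 and 80.2 ATAC CPM in leptomeningeal nuclei of MF1, MF2, HF1 and HF2 and at most 14.7 in any class outside the vessels and meninges. HF1 stood apart from the other leptomeningeal libraries and within the range of other classes. Lama2 had 17.5 in astrocytes (12.5 to 18.9 per library), 29.1 in mural and 12.0 in leptomeningeal nuclei and 0 in microglia, the class with 5.49 CPM of its RNA. The region at Col4a5 held 15.6 in leptomeningeal nuclei from 17 counts and 4.73 in astrocytes. At Col6a2, a partner chain of Col6a1, leptomeningeal nuclei held 62.5 and Cajal-Retzius cells 36.5. Col11a1 was most open in precursors (35.4) and leptomeningeal nuclei (33.1) and had no count in microglia, and Col11a2 in precursors (53.9), oligodendrocytes (48.6) and astrocytes (37.0). One of the Col15a1 starts (chr4:47303024-47303957), the most 3′ of the 3 with a region, was open in microglia at 80.3, 61.5, 62.2 and 77.4 ATAC CPM and at 7.27 or less in every other class. The regions were too sparse in vessel nuclei to order them by library.

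**Figure D3:**
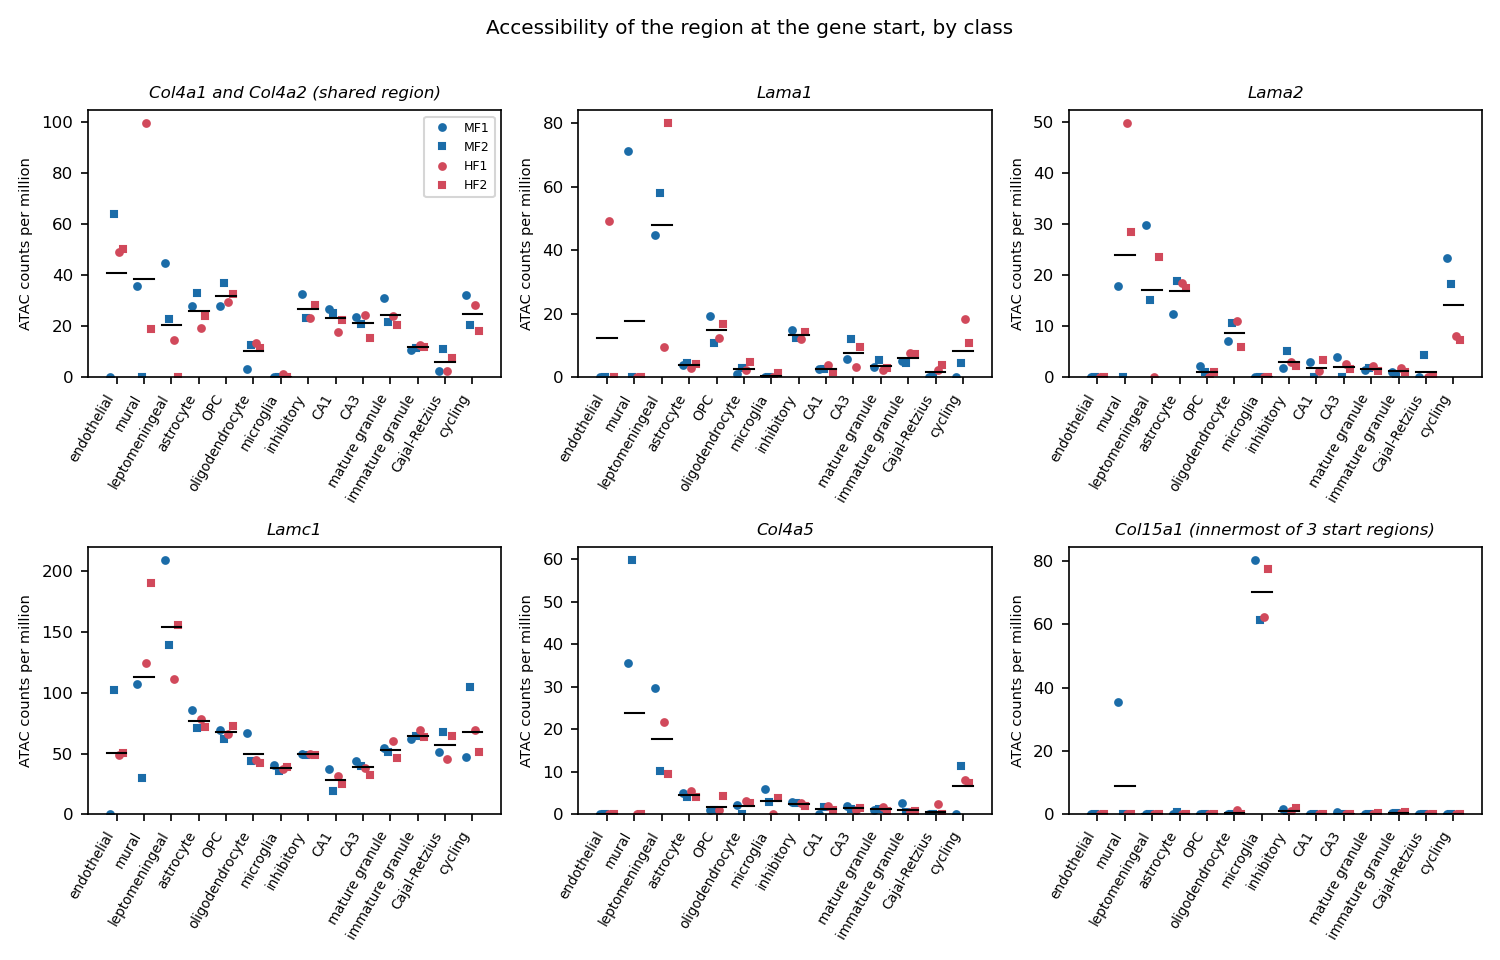
ATAC CPM at 6 start regions of collagen and laminin genes by class, with 1 point per library and a bar at the mean of the 4. The Col15a1 region is open in microglia (61.5 to 80.3 ATAC CPM) and near 0 elsewhere, and Lama2 is open in astrocytes (12.5 to 18.9 ATAC CPM).

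The diet comparison asked whether these genes differed between HF and MF pups. No collagen or laminin gene passed the test in any class. Counts were summed per library and class and compared with edgeR's quasi-likelihood test, and a gene was called at a Benjamini-Hochberg adjusted p (FDR) under 0.05 over all genes and a change of at least 1.2-fold. In 12 classes and in all nuclei together, 51 of the genes entered 181 tests, and 0 were called by edgeR and 0 by DESeq2, with 3 at an unadjusted p under 0.05 and a smallest FDR of 0.966. Over all genes the test called 0.0% in all nuclei and in the vessel and meningeal nuclei, and at most 0.0543%, in oligodendrocyte precursors. Other settings made calls. Without the low-count filter Col25a1 was called in vessel and meningeal nuclei (log2 difference -2.62, edgeR FDR = 0.038) and in dividing nuclei (-2.16, edgeR FDR = 0.0412). Without MF2, genes named below were called in all nuclei, Lama2 in inhibitory neurons (log2 difference 1.63) and Col25a1 in dividing nuclei (-2.89). Without MF1, Col25a1 was called in vessel and meningeal nuclei (-3.39), where MF2 held most of its UMIs. The share of all genes called in these other settings is not given here, so the calls cannot be set beside it. With 2 libraries per diet, an exact permutation test cannot go below p = 0.333.

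The 3 genes with an unadjusted p under 0.05 were higher in HF and had low levels. Lama2 in mature granule neurons held 5.70 and 4.89 CPM in MF1 and MF2 and 9.76 and 8.65 CPM in HF1 and HF2. The log2 difference was 0.87 ± 0.374 (SE, 2 libraries per diet; edgeR FDR = 1.0), in a class where 1.96% of 11960 genes had an unadjusted p under 0.05. The diets did not overlap. The astrocyte markers summed to 1230, 1570, 1420 and 1610 CPM in these neurons, a value whose part was not tested. They include Slc4a4, which is among the 10 leading genes of a subcluster of 754 of these nuclei. Lama3 in astrocytes held 5.40 and 6.54 CPM in MF and 12.9 and 18.9 CPM in HF, from 3, 5, 18 and 17 UMIs (log2 difference 1.36 ± 0.596, edgeR FDR = 1.0; 2.64% of genes in astrocytes). Col9a3 in inhibitory neurons held 2.70 and 5.27 CPM in MF and 10.2 and 6.56 CPM in HF (1.13 ± 0.487, edgeR FDR = 1.0; 2.08% of genes in that class), and the difference ran from 0.63 to 1.71 with a library left out. Its gene overlaps Tcfl5 on the opposite strand by 234 bases. Also on the opposite strand, Lama2 overlaps 4930579H20Rik by 7360 bases and Gm48084 by 2001, and Lama3 overlaps Gm29200 by 3237. In astrocytes 5 of 15 tested members lay higher in both HF libraries than in both MF libraries and 0 lower, against 13.1% and 14.4% of all genes, with a median log2 difference of 0.17 against 0.00 over all genes. That median was 0.71 without the low-count filter and 0.15 to 0.82 with a library left out.

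In the vessel and meningeal nuclei together, 15 of the genes could be tested. Col1a1 (260 and 371 CPM in MF, 459 and 388 in HF), Col3a1 (195 and 337 in MF, 475 and 421 in HF) and Col5a2 (162 and 202 in MF, 253 and 291 in HF) were higher in both HF libraries. Col4a2 (487 and 180 CPM in MF, 146 and 178 in HF), Col4a5 (454 and 595 in MF, 360 and 437 in HF) and Col4a6 (681 and 719 in MF, 314 and 485 in HF) were lower in both. The other 9 genes overlapped, among them Col1a2 (714 and 629 CPM in MF, 804 and 599 in HF) and Col4a1 (649 and 169 in MF, 99.6 and 291 in HF). The 3 of 15 that were lower are close to the share over all genes, 19.4% of 1903, while 10.2% of all genes were higher without overlap. The unadjusted edgeR p-values of the 6 genes ran from 0.16 to 0.553 (FDR = 0.997 each). The median log2 difference was -0.08 over the 15 genes and 0.04 over all genes tested. The share of leptomeningeal nuclei within this class was 31.6%, 73.8%, 78.0% and 63.3% in MF1, MF2, HF1 and HF2, and other markers moved with the diets as well. The 20 endothelial markers summed to 6360 and 5720 CPM in MF and to 2210 and 2650 CPM in HF, the 14 astrocyte markers to 3830 and 4200 against 4550 and 6250 CPM, the 13 precursor markers to 617 and 270 against 996 and 922 CPM, and the 15 oligodendrocyte markers to 681 and 607 against 804 and 2060 CPM. The 14 mural markers stood at 8310 CPM in MF1, the library with the most Col4a1 and Col4a2, and at 1400, 2770 and 2690 CPM in MF2, HF1 and HF2. The choroid plexus markers stood at 11000 CPM in HF1 and at 64.7 to 78.6 CPM in the other libraries. The part of these in the values was not tested. Within leptomeningeal nuclei alone no test was run, since MF1 had 6 of them, with 5 UMIs of Col3a1 and 3 of Col5a2. By their levels there, 2 of the 15 genes were higher in both HF libraries, Col3a1 and Col5a2, beside 13.2% of the same 1903 genes. Another 6 were lower in both, Col4a1, Col4a5, Col4a6, Lama1, Lama4 and Lamc1, beside 17.4%, while Col1a1 and Col4a2 overlapped. Without the nuclei that had more markers of another type, which were mostly in HF1, these counts became 3 higher (Col1a1 joined, beside 248 of the 1903 genes) and 4 lower (Lama1 and Lamc1 overlapped, beside 300 of them).

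**Figure D4:**
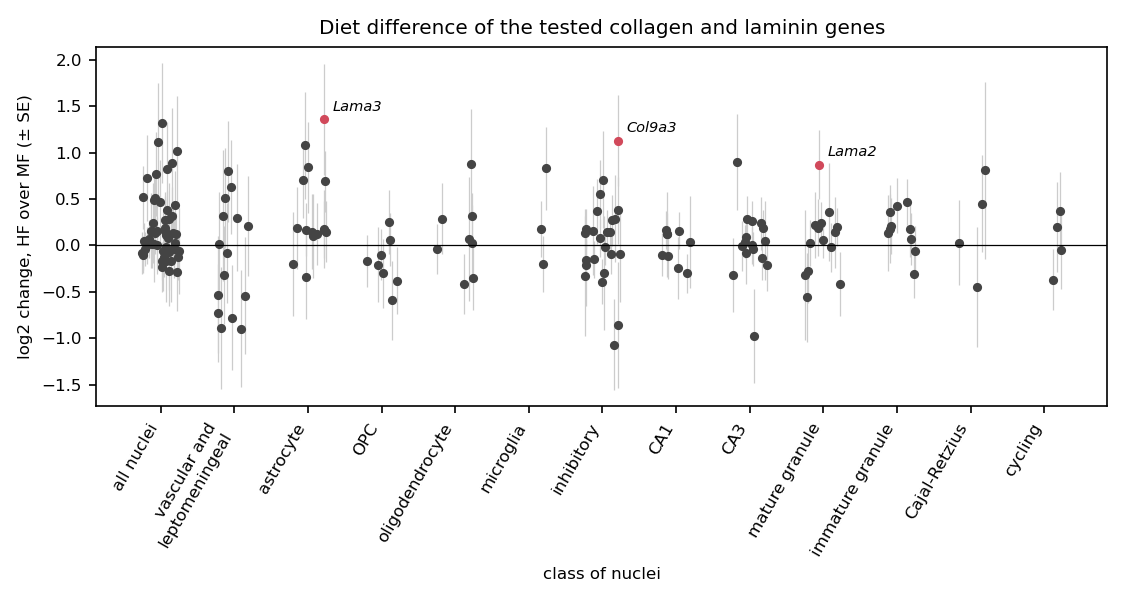
Log2 difference HF over MF (± SE) of each tested collagen or laminin gene by class of nuclei, from edgeR on 2 libraries per diet. Red points are Lama3 in astrocytes, Col9a3 in inhibitory neurons and Lama2 in mature granule neurons, the 3 with an unadjusted p under 0.05, and none passed the adjusted threshold.

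Over all nuclei the fibril genes were lowest in the library with the fewest leptomeningeal nuclei. Col3a1 stood at 0.357, 2.13, 3.42 and 1.72 CPM and Col1a2 at 1.11, 3.82, 6.81 and 2.10 CPM in MF1, MF2, HF1 and HF2, and the share of leptomeningeal nuclei was 0.207%, 1.38%, 1.32% and 0.656%. MF1 was lowest in every case, and MF2 lay above HF2 in both genes. HF1 was highest in both genes, though its share was below that of MF2. Over all nuclei it also held 201 CPM of the choroid plexus markers, against 19.9 to 29.4 CPM elsewhere, and 13 of the 28 nuclei of the mixed vessel subcluster, which has Col1a1 among its 10 leading genes. The part of these in the values was not tested. Neither passed the test (Col3a1 log2 difference 1.12 ± 0.627 and Col1a2 0.89 ± 0.588, edgeR FDR = 1.0 for both). In summed nuclei, fewer cells of a type and less RNA per cell cannot be told apart. MF2 decided this: without it, Col1a1, Col1a2, Col3a1 and Col4a5 were called, at log2 differences of 1.98, 2.10, 2.94 and 1.88. That fit leaves MF1 alone in its diet, and its share of all genes called is not given here. Of the 51 tested genes, 6 were higher in both HF libraries and 2 lower, against 6.42% and 11.9% of 18373 genes.

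The share of vessel and meningeal nuclei itself was 0.655% (95% exact binomial interval 0.395 to 1.02%) in MF1, 1.87% (1.35 to 2.52%) in MF2, 1.7% (1.30 to 2.19%) in HF1 and 1.04% (0.700 to 1.48%) in HF2. The diets overlapped (difference 0.106 percentage points, two-sided exact permutation p = 1.0), and the sign of that difference turned under other settings.

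**Figure D5:**
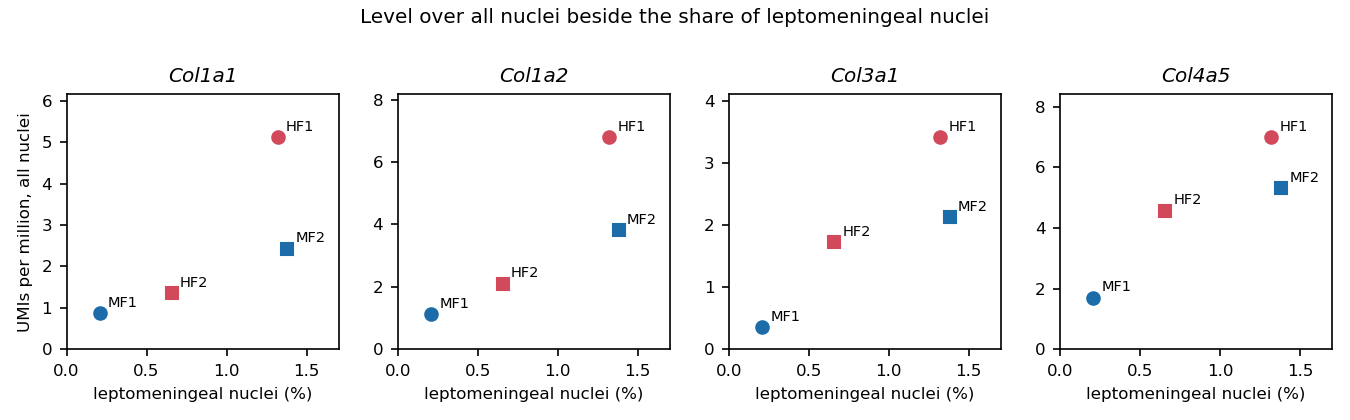
Level in CPM over all nuclei of 4 collagen genes (vertical axes) against the share of leptomeningeal nuclei in percent (horizontal axes), with 1 point per library. The library with the fewest leptomeningeal nuclei, MF1 at 0.207%, has the lowest level of each gene. Astrocytes, whose share was also lowest in MF1 (6.14%), held 13, 33, 75 and 50 UMIs of Col4a5 in MF1, MF2, HF1 and HF2. Over all nuclei Col4a5 had 43, 107, 205 and 122 UMIs, and the part of either share was not tested.

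The genes that work with these chains were taken from 3 lists. Of 20 basement membrane and matrix partners, 12 had their highest mean level in the vessel and meningeal nuclei, of 17 receptors 9, and of 30 genes of collagen maturation, secretion and cross-linking 8. Among these, 2, 4 and 3 rest on fewer than 10 UMIs there, and Dcn and Lum are among the markers that named the leptomeningeal nuclei. Without those markers and genes under 100 UMIs over all nuclei, the counts were 7 of 15, 8 of 16 and 5 of 26, beside the 17.1% of all genes given above. Among partners, Nid1, which bridges laminin and type IV collagen, held 487, 292, 230 and 291 CPM in vessel and meningeal nuclei of MF1, MF2, HF1 and HF2 and a mean of 0.332 CPM in all other nuclei. Fmod and Lum, small proteoglycans that bind collagen fibrils, followed in the ratio of the 2 means. Among receptors, the collagen-binding integrin chain Itga1 held 1270, 258, 276 and 469 CPM, with MF1 the highest. Ddr2, a kinase that fibrillar collagen activates, held a mean of 163 CPM and Mrc2, which takes up collagen for breakdown, 150 CPM, against 3.15 and 3.33 CPM elsewhere. Among maturation genes, Pcolce, which aids removal of the collagen end piece, held a mean of 133 CPM against 0.447 CPM, and Serpinh1, the collagen chaperone of the endoplasmic reticulum, 106 against 3.14 CPM. The cross-linking enzyme Lox rested on 5 UMIs.

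None of these genes passed the diet test either. Of 322 tests 0 were called by edgeR and 0 by DESeq2, and 12 (3.73%) had an unadjusted p under 0.05, all with diets that did not overlap. Over all genes and the same classes, 2.07% of 112772 tests did, with 199 of 3510 in dividing nuclei, so the differences below are descriptions of values that did not pass the test. Without MF2, Tnc was called in all nuclei, Tnr in astrocytes, Tll1 in CA3 neurons, Adgrg6 in inhibitory neurons (also without HF1) and Smoc1 in vessel and meningeal nuclei, at log2 differences of 1.61, 2.09, 1.86 and 2.63 for the first 4, and against 0 UMIs in MF1 for Smoc1. Tnc and Tll1 also passed with the replicate number as a block (1.02 and 1.45) and without a low-count filter. Tnc, a matrix protein of young astrocytes, held 103 and 135 CPM in MF and 271 and 210 CPM in HF in astrocytes (log2 difference 1.03 ± 0.285, edgeR FDR = 1.0), and 0.97 ± 0.321 over all nuclei. Its relative Tnr, a matrix protein of precursors and perineuronal nets, was at 21.6 and 51.0 CPM in MF and 95.7 and 76.8 CPM in HF in astrocytes (1.21 ± 0.34). In dividing nuclei it stood at 623 and 680 CPM in MF and 1320 and 1590 CPM in HF (1.2 ± 0.333, edgeR FDR = 0.527). The 13 precursor markers summed there to 4690 and 3360 CPM in MF and to 8980 and 7660 CPM in HF. Tnr is itself among these markers, so the sum includes it. The part of the other markers in the value of Tnr was not tested. Tll1, a protease that trims procollagen, stood at 7.43 and 11.6 CPM in MF and 27.2 and 22.0 CPM in HF in CA3 neurons (1.44 ± 0.321, edgeR FDR = 0.999). The other positive differences were Ddr2 in astrocytes (1.01 ± 0.437) and the prolyl hydroxylase P3h2 in CA1 neurons (0.80 ± 0.258). The laminin binder Nid2 in microglia (1.58 ± 0.609) and the matrix protein Smoc1 in vessel and meningeal nuclei (2.01 ± 0.736) were positive too. In MF1, MF2, HF1 and HF2, Ddr2 had 4, 15, 39 and 26 UMIs and P3h2 54, 53, 87 and 87. Nid2 had 13, 1, 21 and 9 UMIs and Smoc1 0, 7, 19 and 19. In microglia the 14 mural markers summed to 1.82 and 5.34 CPM in MF and to 16.3 and 94.6 CPM in HF, and the 11 choroid plexus markers to 20.1, 5.34, 3830 and 8.60 CPM in MF1, MF2, HF1 and HF2, where HF1 also held the most Nid2 (68.3 CPM). Smoc1 had its highest mean in precursors, whose markers were higher in HF in the vessel and meningeal nuclei, as given above. The part of either in these values was not tested. The negative differences were the collagen receptor Ddr1 in Cajal-Retzius cells (-1.80 ± 0.692), the proteoglycan Agrn in immature granule neurons (-0.59 ± 0.266) and the lysyl hydroxylase Plod1 in inhibitory neurons (-1.25 ± 0.49). Ddr1 rested on 10, 9, 4 and 4 UMIs in MF1, MF2, HF1 and HF2, Agrn on 100, 84, 75 and 44, and Plod1 on 17, 13, 7 and 7. Astrocytes made up 6.14% and 11.3% of the MF nuclei and 15.1% and 11.6% of the HF nuclei, and the part of that share in the value of Tnc over all nuclei was not tested.

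Accessibility gave no call between the diets. Of 539 regions at or in the 56 genes, 0 were called by edgeR (FDR under 0.05 over all regions) and 0 by DESeq2, while 0.0162% of 154785 regions were called. An unadjusted p under 0.05 was found for 22 of them, against 4.36% of all regions. Without MF2, regions in Col22a1, in Col23a1 and at a start of Col15a1 were called, at log2 differences of 0.91, 1.32 and -0.76. Without HF2, regions in Col22a1 and Col23a1 were called (1.03 and 1.21). Calls over all regions also rose in both fits, each of which leaves 1 library in a diet. At the starts the log2 differences ran from -0.54, at the most 5′ start of Col15a1 (6.41 and 4.78 ATAC CPM in MF, 3.85 and 3.57 in HF; edgeR FDR = 0.71), to 0.36 at Lama2 (2.68 and 3.77 in MF, 4.25 and 3.74 in HF; edgeR FDR = 1.0). The diets did not overlap at the first and overlapped at the second. The start of Col15a1 that was open in microglia differed by -0.21 ± 0.215 (edgeR FDR = 1.0).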

How the data were processed

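Gene expression and chromatin accessibility were measured in the same hippocampal nuclei. The authors processed the reads with Cell Ranger ARC 2.0.1 against mm10 and deposited, per library, gene UMI counts and ATAC counts in peaks called within that library. Whether intronic reads were counted is not given in the sources used here. The deposited counts were read as they stand. Nuclei were kept with 500 to 7000 genes, mitochondrial UMIs under 2%, and 1000 to 70000 ATAC counts, as in the study, whose further limits on nucleosome signal and on enrichment at start sites need fragments and were not applied here. Scanpy 1.11.5 clustered them (3000 variable genes without the collagen and laminin genes, 20 components, resolution 0.8). A cluster was named where at least 3 fixed markers of 1 type led its genes. Another 6 clusters of 185 to 605 nuclei stayed unnamed, and 6 clusters and a subcluster of 28 nuclei with a median Scrublet score over 0.05 and UMIs above their library's median, a rule set after the clusters were seen, were set apart as mixed. The mural nuclei exceeded that score and were kept by their low UMIs. Both remain in the sums over all nuclei.

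Library sums per class were compared between diets with edgeR 4.0.16 (TMM, quasi-likelihood test, all genes, classes with at least 10 nuclei per library) and with DESeq2 1.42.0 as an alternative. Levels between classes are described and not tested, since the classes come from the same nuclei. Intervals are exact, at 95%, and cover counting error only. The scripts were tested on simulated counts with a fixed spread, the same for all genes. That check set no limit for the vessel and meningeal nuclei, so it does not show how the test performs there. ATAC peaks were merged, and regions with a peak in all 4 libraries were compared in the same way. Promoter stretches come from RefSeq on GRCm38.p6. Genes were named where they had at least 100 UMIs in 1 class, or, between diets, where called or where the unadjusted p was under 0.05 with diets that did not overlap, and list genes otherwise as the top 3 by the ratio of mean levels. The members, the cell type markers and the lists were chosen with earlier results of these data known. Alternatives were other normalization, low-count filters, doublet filters, resolution, clustering with the members, no ATAC filter, a replicate block and each library left out; removing nuclei with more markers of another type and wider removal of mixed clusters were chosen after seeing the data. No column belonged to another series (0). Of the genes this rule names, 1 is not reported here.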

Additional observations from a re-analysis of the deposited data

How the results depend on the processing

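No alternative with all 4 libraries and the low-count filter called a collagen or laminin gene between the diets. Without MF2, Col1a1, Col1a2, Col3a1 and Col4a5 were called in all nuclei (log2 differences 1.98, 2.1, 2.94 and 1.88). Lama2 in inhibitory neurons (1.63) and Col25a1 in dividing nuclei (-2.89) were called in the same setting. Without MF1, Col25a1 was called in vessel and meningeal nuclei (-3.39). Leaving out HF1 or HF2 called no collagen or laminin gene. The share of all genes called in these fits is not given here. Without the low-count filter Col25a1 was called in the vessel and meningeal nuclei (1 gene, -2.62) and in dividing nuclei (1 gene, -2.16). The fits with a library left out leave 1 library in a diet, which is assumed to vary like the other diet. The 3 named differences kept their sign when each library was left out, at 0.86 to 0.91 for Lama2, 1.2 to 1.73 for Lama3 and 0.63 to 1.71 for Col9a3.

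The median log2 difference of the genes in astrocytes, 0.17, was 0.71 without the filter and 0.15 to 0.82 with a library left out. In microglia, 0.18 became 1.08 without the filter, -0.37 at the higher resolution and -0.04 to 0.29 with a library left out. In oligodendrocytes, 0.05 ranged from -0.25 to 0.49. The difference in the share of vessel and meningeal nuclei, 0.106 percentage points, ranged from -0.5 to 0.712 with a library left out (-0.226 without HF1). It was -0.00732 with the members in the clustering, -0.00732 at the higher resolution, -0.0436 with all doublet-scored clusters set apart and -0.00588 without nuclei with more markers of another type. The count of 30 chains highest in vessel and meningeal nuclei ranged from 22 to 28 with a library left out.

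Among list genes, 1 was called in all nuclei (Tnc) and 1 in CA3 neurons (Tll1) without the filter, without MF2 and with the replicate block, and 1 each in vessel and meningeal nuclei (Smoc1) and astrocytes (Tnr) without MF2 and in inhibitory neurons (Adgrg6) without MF2 or HF1, so 0 to 1 in each with a library left out. The share of all genes called in these fits is not given here. Regions at or in the collagen and laminin genes were called only without MF2 and without HF2, against 0 in the main test. Calls over all regions also rose in both of those fits.

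The labels do not say what libraries with the same replicate number share. MF1 minus MF2 correlated with HF1 minus HF2 at 0.203 over 18373 genes, in only 2 pairs, and the replicate block called 0 members. Of 198 levels under other settings, 18 moved by more than the spread between libraries. The vessel and meningeal test without doublet-scored nuclei was not run because a library held fewer than 10 nuclei.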
